A study of Mus musculus with 8 samples.

Results

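Messenger RNA of 9 genes of the synaptic vesicle and its SNARE fusion machinery was followed in tdTomato-positive mouse brain cells. The genes were Snap25, Vamp2, Stx1a, Syp, Syt1, Sv2a, Syn1, Syn2 and Camkv, a list of symbols drawn up with earlier results of these data known. All 9 had a row among the 53507 gene rows, and all 9 were among the 19936 genes that passed the filter on low counts. The study compared sorted cells, called progenitor cells in the labels, after neonatal hypoxia, after rearing in normal air and in the embryo. There were 4 groups of 2 libraries. P12 hypoxia held cells of postnatal day 12 pups that had breathed 10% oxygen for 8 days from P3 until P11. P12 normoxia held cells of pups of the same age kept in a normal atmosphere. E15 and E13 held cells of embryos labelled wild type, of embryonic days 15 and 13. tdTomato is a red fluorescent protein by which all cells of the 4 groups were selected, and the promoter or Cre line that drove it is not given in the sources used here. Mothers of the hypoxic and control litters were exchanged during the exposure. Whether the 2 libraries of a group stem from different animals is not given, so p-values measure the spread between libraries only, which may be technical.

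Neurotransmitter leaves a nerve terminal when a vesicle fuses with the plasma membrane. Fusion is driven by SNARE proteins: VAMP2 on the vesicle zips together with syntaxin 1A and SNAP25 on the plasma membrane. Synaptotagmin 1 on the vesicle senses calcium and triggers the final step, SV2A and synaptophysin are abundant proteins of the vesicle membrane, and synapsins 1 and 2 coat the vesicle and tether it in a reserve pool. Camkv is a kinase-like protein without kinase activity that associates with vesicles and is needed to keep dendritic spines in mouse neurons. These genes are used as markers of maturing neurons, while progenitors and glia use widely expressed relatives such as Snap23 and Vamp3 for general membrane traffic.

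Levels are given as CPM, which is counts per mega-count of a library's TMM-scaled total. Named genes received 36252027 to 47084796 counts a library. A gene with 0 counts may still hold up to 3, which is 0.0482 to 0.111 CPM, and this bound and every counting interval cover counting error only. Genes with 10 counts or more numbered 12785 and 11695 in P12 hypoxia, 14129 and 16468 in P12 normoxia, and 17520 to 18318 in the embryo. Replicates spread far more at P12 than in the embryo. Among genes that reached 10 CPM in either library of a group, the 2 libraries differed over 10-fold for 3664 of 10463 genes in P12 hypoxia, 2003 of 11423 in P12 normoxia, 1 of 9490 at E15 and 6 of 9686 at E13.

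The start regions of 4 of the genes are shown as examples of the 2 patterns in hypoxia: Camkv and Syp were near 0 in both hypoxic libraries, as were other genes of the 9, and Syn1 and Sv2a in the same 1 of them. Each stretch runs 5′ to 3′ on the gene's strand, from 250 bases before to 50 bases after the transcription start in RefSeq on GRCm38.p6. Capitals mark the GC box GGGCGG, the cyclic AMP element TGACGTCA and the left part TTCAGCACC of RE1, the site of the neuronal repressor REST, found on either strand. The stretches are chr9:107935670-107935969 (plus strand) for Camkv, chrX:7638330-7638629 (plus) for Syp, chrX:20920869-20921168 (minus) for Syn1 and chr3:96180977-96181276 (plus) for Sv2a.
Camkv: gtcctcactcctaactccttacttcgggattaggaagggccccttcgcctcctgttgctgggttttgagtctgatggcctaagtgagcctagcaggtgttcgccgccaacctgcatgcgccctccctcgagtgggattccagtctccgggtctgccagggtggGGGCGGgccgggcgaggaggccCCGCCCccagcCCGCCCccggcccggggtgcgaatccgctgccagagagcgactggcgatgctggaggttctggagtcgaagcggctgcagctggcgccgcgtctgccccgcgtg
Syp: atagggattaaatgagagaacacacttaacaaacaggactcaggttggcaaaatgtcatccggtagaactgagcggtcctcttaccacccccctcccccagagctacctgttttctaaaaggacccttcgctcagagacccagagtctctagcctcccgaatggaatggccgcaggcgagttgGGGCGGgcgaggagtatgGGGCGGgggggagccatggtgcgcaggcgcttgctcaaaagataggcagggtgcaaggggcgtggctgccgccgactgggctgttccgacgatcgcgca
Syn1: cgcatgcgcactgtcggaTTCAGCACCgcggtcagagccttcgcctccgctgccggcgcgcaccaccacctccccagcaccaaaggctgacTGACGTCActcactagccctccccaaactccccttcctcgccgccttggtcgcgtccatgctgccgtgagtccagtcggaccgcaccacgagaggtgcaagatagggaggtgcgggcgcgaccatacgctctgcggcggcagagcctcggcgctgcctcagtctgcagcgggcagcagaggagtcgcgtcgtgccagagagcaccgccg
Sv2a: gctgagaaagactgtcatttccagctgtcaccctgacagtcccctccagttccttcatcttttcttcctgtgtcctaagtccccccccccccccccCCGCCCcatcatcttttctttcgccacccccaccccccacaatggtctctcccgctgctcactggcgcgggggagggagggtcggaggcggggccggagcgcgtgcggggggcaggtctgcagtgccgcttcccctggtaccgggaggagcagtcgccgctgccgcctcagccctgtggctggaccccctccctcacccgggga

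There were 9 start regions for 7 of the 9 genes, with 2 each for Syn2 and Syt1, and Snap25 and Vamp2 were the genes not covered. A GC box lay in 6 of these 9 regions, those of Camkv, Syp, Stx1a and Sv2a and 1 each of Syt1 and Syn2, and in 35.7% of all 32851 regions of the same length. Syn1 had none on either strand, but its region alone held the RE1 part, found in 0.371% of all regions, and the cyclic AMP element, found in 1.79%. The shorter TGACG, which the full element contains, lay in Syn1 and Stx1a and in 20.8% of all regions. The right part of RE1 lay in none of the 9 regions and in 0.521% of all, and the TATA box TATAAA in none and in 13.6%. The E-box CAGCTG, not capitalised, lay in 4 of the 9 regions, those of Sv2a, Stx1a and Camkv and the Syt1 region without a GC box, and in 16.3% of all. GC content was 59.0% for Syp and 68.0% to 68.3% for the other 3 regions printed, against a median of 52.7%. A match describes letters only, and no match says nothing of a factor.

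Hypoxic pups were compared with pups kept in normal air to ask what neonatal hypoxia changes in these cells. Some vesicle genes were near 0 in both hypoxic libraries, others in 1 of them, and Vamp2 in none. Snap25, Syp and Camkv fell in hypoxia (quasi-likelihood test of edgeR, p adjusted over all genes by Benjamini-Hochberg), 0 of the 9 rose, and 7 of 9 fitted fold changes were negative. The 3 calls among 9 genes stand beside 3.02% of all tested genes called, 2.82% lower and 0.196% higher. The median log2 fold change was -5.98 over the 9 and 0 over all tested genes, and 5 of 9 lay lower in both hypoxic libraries than in both normoxic ones, as 20.1% of all tested genes did. Tests that dropped any single embryonic library (E13 replicate 1 or 2, E15 replicate 1 or 2), called 0 of the 9, as did limma-voom, while DESeq2 called 6 lower. A fit of the P12 libraries alone called 0 of the 8 it tested, Stx1a not being among them. Without hypoxic replicate 2, 5 of the 9 were called lower, in a fit that assumes that the lone hypoxic library varies like the other groups. In bulk RNA, fewer cells of a type and less RNA per cell cannot be told apart.

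**Figure D1:**
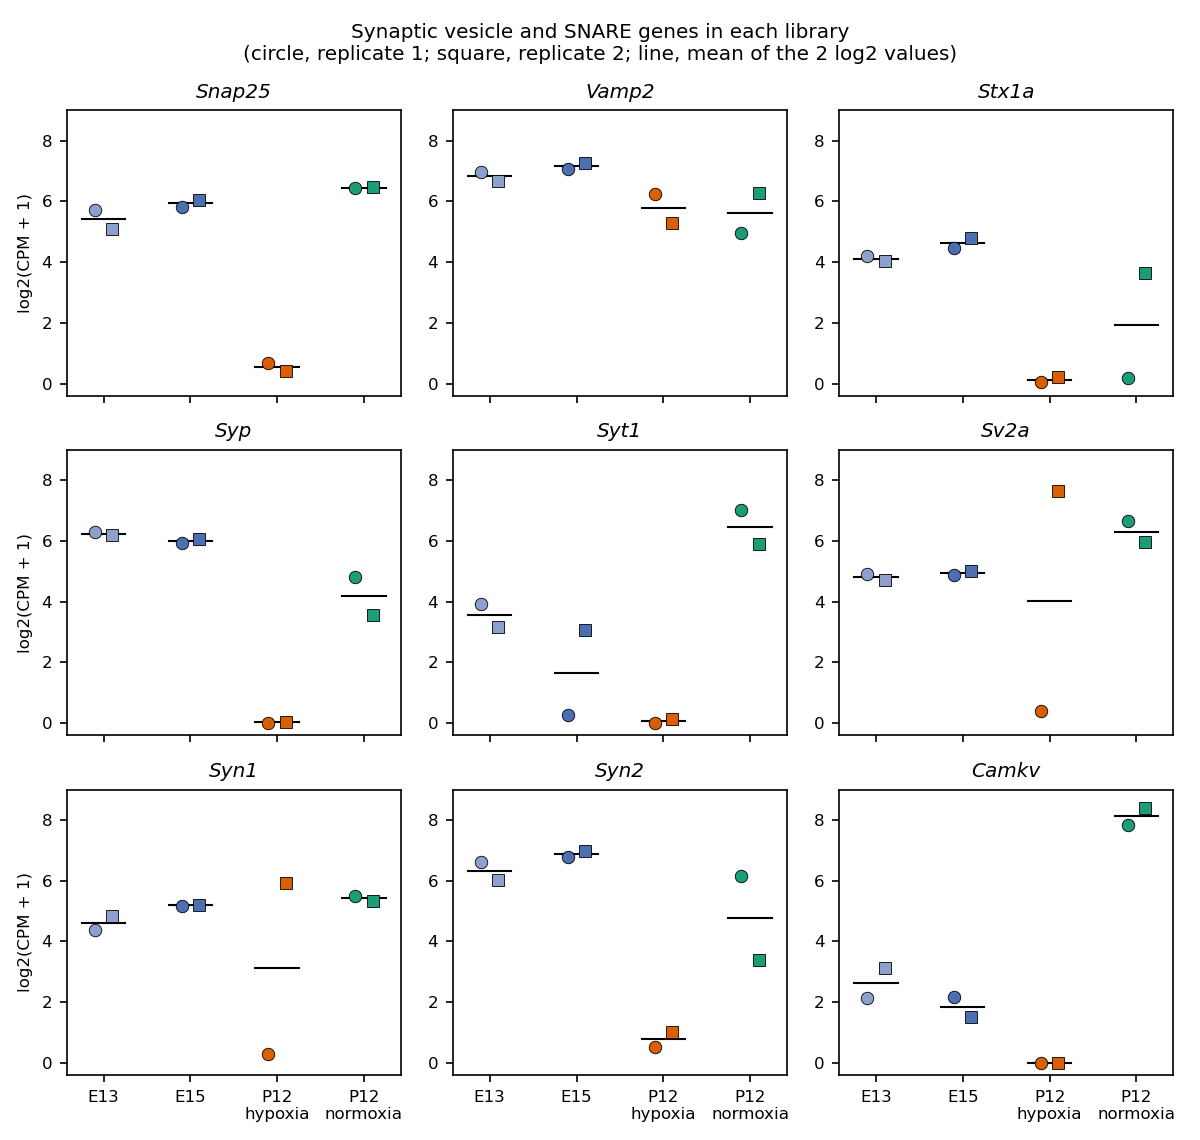
log2(CPM + 1) of the 9 genes in each of the 8 libraries, by group, with circles for replicate 1, squares for replicate 2 and a line at the mean of the 2 log2 values. Snap25, Syp, Syt1, Stx1a, Syn2 and Camkv sit at or near 0 in both hypoxic libraries, Syn1 and Sv2a in 1 of them, and Vamp2 in none.

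Of the SNARE genes, Snap25 (GRCm38 chromosome 2, 136713453 to 136782428, plus strand) encodes a plasma membrane SNARE. Snap25 had 0.605 and 0.333 CPM in the hypoxic libraries, against 85.8 and 87.6 CPM in the normoxic. It stood at 55.4 and 65.1 CPM at E15 and at 51.4 and 33.2 CPM at E13. Both hypoxic libraries lay far below the other 6. Snap25 fell by 7.52 on the log2 scale in hypoxia (SE 0.67 from the fit of all 8 libraries, edgeR adjusted p = 0.0195). With 27 counts over both hypoxic libraries and 5389 over both normoxic, its ratio was 182 (95% counting interval 125 to 277).

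Vamp2, the vesicle SNARE (chromosome 11, 69088490 to 69092384, plus strand), had 74.5 and 38.2 CPM in hypoxia, against 30.4 and 76.6 CPM in normoxia. At E15 it had 132 and 152 CPM and at E13 125 and 102 CPM. The P12 groups overlapped completely, and both lay below the embryo. In hypoxia over normoxia its log2 fold change was 0.07 (SE 0.56, edgeR adjusted p = 1), and -0.37 without hypoxic replicate 1. Stx1a, the plasma membrane syntaxin (chromosome 5, 135023482 to 135051100, plus strand), had 0.0336 and 0.148 CPM in hypoxia, against 0.127 and 11.6 CPM in normoxia. It had 21.3 and 26.5 CPM at E15 and 17.3 and 15.4 CPM at E13. The first normoxic library, with 4 counts, lay between the hypoxic libraries, with 1 and 4 counts. At a log2 fold change of -5.98 (SE 2.11), Stx1a was not called (edgeR adjusted p = 0.231).

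Among the vesicle membrane proteins, Syp encodes synaptophysin (chromosome X, 7638471 to 7653256, plus strand). Syp had 0 and 0.0370 CPM in hypoxia, 1 count in all, against 27.3 and 10.8 CPM in normoxia. It was highest in the embryo, with 60.8 and 66.6 CPM at E15 and 77.6 and 72.5 CPM at E13. It was lower in hypoxia by a ratio of 1089 (95% counting interval 195 to 43060; edgeR adjusted p = 0.0241). Gm14703 lies antisense over 875 exonic bases of Syp, Timp4 over 90 of Syn2 and Araf over 9 of Syn1. The strand setting of the counting is not given, so reads of each pair cannot be told apart there.

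Syt1, the calcium sensor of release (chromosome 10, 108497650 to 109010982, minus strand), had 0 and 0.111 CPM in hypoxia, against 130 and 58.6 CPM in normoxia. It had 0.194 and 7.31 CPM at E15 and 14.3 and 7.95 CPM at E13. The hypoxic libraries held 3 counts and the normoxic 5894, a ratio of 1794 (95% counting interval 614 to 8701). Its log2 fold change of -10.69 (SE 2.56) still missed the threshold (edgeR adjusted p = 0.108). Syt1 was the only one of the 9 that differed over 10-fold between the E15 libraries.

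Sv2a, a vesicle glycoprotein and the binding site of the antiepileptic levetiracetam (chromosome 3, 96181151 to 96195521, plus strand), had 0.336 and 201 CPM in hypoxia, against 101 and 61.0 CPM in normoxia. It was steady in the embryo, with 28.5 and 31.0 CPM at E15 and 29.2 and 25.4 CPM at E13. The second hypoxic library held the highest Sv2a value of all 8 and the first the lowest, so the group had no common level. Its log2 fold change of 0.31 (SE 1.90, edgeR adjusted p = 1) was -7.91 without hypoxic replicate 2 (edgeR adjusted p = 0.0136) and 1.41 without hypoxic replicate 1. Both of these fits borrow the spread of the lone hypoxic library from the other groups. Over all alternatives its adjusted p ran from 0.0136 to 1.

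Of the proteins on the vesicle surface, synapsin 1 showed the same split. Syn1 (chromosome X, 20860511 to 20921004, minus strand) had 0.235 and 59.7 CPM in hypoxia, against 44.3 and 39.6 CPM in normoxia. It had 35.1 and 35.6 CPM at E15 and 19.8 and 27.7 CPM at E13. The log2 fold change of Syn1 was -0.49 (SE 1.76, edgeR adjusted p = 0.994), but -7.45 without hypoxic replicate 2 and 0.62 without hypoxic replicate 1. Syn2 (chromosome 6, 115134902 to 115282006, plus strand) was instead low in both hypoxic libraries, with 0.437 and 1.04 CPM, against 70.2 and 9.55 CPM in normoxia. In the embryo Syn2 had 109 and 126 CPM at E15 and 96.3 and 64.5 CPM at E13. The normoxic libraries differed 7.35-fold from each other, and Syn2 was not called at a log2 fold change of -5.76 (SE 1.16, edgeR adjusted p = 0.0664).

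Camkv (chromosome 9, 107935674 to 107949691, plus strand) went to both ends of the scale. It had no count in either hypoxic library, against 230 and 337 CPM in the normoxic libraries. At E15 it had 3.45 and 1.88 CPM and at E13 3.38 and 7.65 CPM. Camkv was therefore at least 2676-fold lower in hypoxia than in normoxia, taking 3 counts per hypoxic library (edgeR adjusted p = 0.0195), and at least 25.2-fold lower than at E15 on the same terms. In normoxia it was the most abundant of the 9, as the levels per length given further on show.

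Low values in hypoxia thus came in both libraries or in 1. Of the 7 genes with at least 10 CPM in both normoxic libraries, Camkv, Snap25, Syp and Syt1 lay under 1 CPM in both hypoxic libraries, and Sv2a and Syn1 in 1 of them. Among all 7994 genes so expressed in normoxia, 6.53% lay under 1 CPM in both hypoxic libraries and 17.9% in 1. These limits were chosen after the values were seen, and a choice by normoxic level favours lower values in hypoxia for any gene. In the other direction, 0.409% of the 6118 genes with at least 10 CPM in both hypoxic libraries lay under 1 CPM in both normoxic ones. The hypoxic libraries also had fewer genes with at least 10 counts, and the part of this in the low values was not tested.

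**Figure D2:**
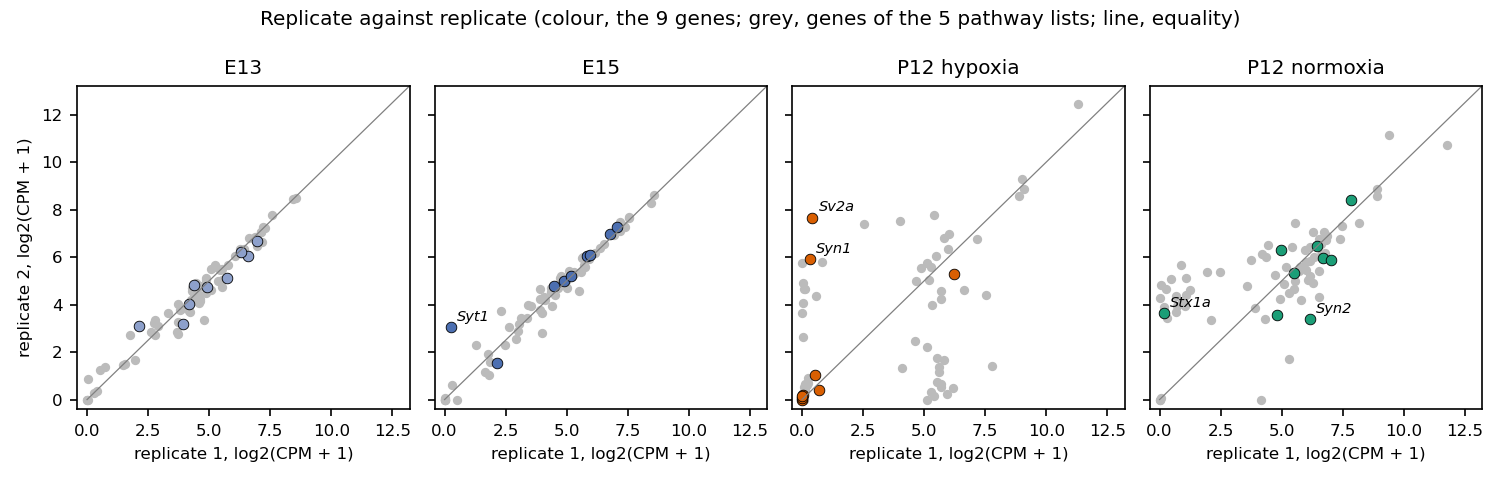
Replicate 2 against replicate 1, both as log2(CPM + 1), in each group, with the 9 genes in colour, the genes of 5 further vesicle and SNARE lists in grey and a line at equality. Embryonic points lie along the line, with Syt1 at E15 apart, while at P12 points also lie along both axes, among them Sv2a and Syn1 in hypoxia and Stx1a in normoxia.

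Across the 8 libraries the 9 genes were only loosely tied to each other. Pearson's r on log2(CPM + 1) had a median of 0.41 over the 36 pairs and ran from -0.39 to 0.98, as a description over 8 libraries that share groups and differ in depth. The closest pairs were Syp with Syn2 (r = 0.98), Syn1 with Sv2a (0.95) and Syt1 with Camkv (0.89). Vamp2 with Sv2a lay at the other end (-0.39). The 5 other genes most like the 9, by mean r with them over the 8 libraries, were Mier2 (0.69), Eif4g3 (0.69), Tada3 (0.69), Flywch1 (0.69) and Caap1 (0.69). Tada3, for example, had 1.61 and 3.77 CPM in hypoxia, against 37.5 and 43.2 CPM in normoxia, with 43.0 and 40.0 CPM at E15 and 42.2 and 41.3 CPM at E13.

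Further genes of release, of the vesicle, of its recycling and of the active zone were counted in lists drawn up with earlier results of these data known. Each list's calls in hypoxia against normoxia stand beside 2.82% of all tested genes called lower and 0.196% called higher. The neuronal SNARE and release list had 4 of 19 genes lower in hypoxia and 0 higher, with a median log2 fold change of -4.35. Vamp1, a close relative of Vamp2, had no count in either hypoxic library, against 55.0 and 17.0 CPM in normoxia. Cplx1, complexin 1, which clamps the SNARE complex, had 0.101 and 0.333 CPM in hypoxia, against 32.9 and 27.9 CPM in normoxia. Syt7, a slow calcium sensor, had 0.0673 and 0 CPM, against 29.8 and 17.6 CPM in normoxia. Rims2, an active zone protein that docks vesicles, had 0.135 and 0.518 CPM, against 17.3 and 69.3 CPM in normoxia. These 4 passed with edgeR adjusted p-values of 0.0285, 0.0316, 0.0401 and 0.0460 in that order. Of the list, 13 of 19 lay lower in both hypoxic libraries than in both normoxic ones, as did 20.1% of all tested genes.

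Of the other vesicle membrane and surface genes 2 of 13 were lower and 0 higher, with a median log2 fold change of -1.37. Syngr3, synaptogyrin 3, had 0.168 and 0.629 CPM in hypoxia, against 287 and 170 CPM in normoxia (edgeR adjusted p = 0.0207). Synpr, synaptoporin, a relative of synaptophysin, had 0 and 0.0370 CPM, against 65.8 and 32.1 CPM (edgeR adjusted p = 0.0244). Sv2b, a relative of Sv2a, had no count in hypoxia, against 1.11 and 33.4 CPM in normoxia, and did not pass (edgeR adjusted p = 0.105). Scamp5, of secretory vesicles, had 33.3 and 53.0 CPM in hypoxia, against 108 and 70.6 CPM in normoxia, and did not pass either (0.272).

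The endocytosis list had 1 of 9 genes lower and 0 higher, with a median log2 fold change of -0.95. Dnm1, the neuronal dynamin that pinches off recycled vesicles, had 0.101 and 0.296 CPM in hypoxia, against 79.0 and 63.6 CPM in normoxia (edgeR adjusted p = 0.0229). Sh3gl2, endophilin A1, had 0.101 and 0.592 CPM, against 1.08 and 14.2 CPM in normoxia, and did not pass. Amph, amphiphysin, had 50.6 and 0.444 CPM in hypoxia, against 0.635 and 14.5 CPM in normoxia. Amph and Synj1, synaptojanin 1, overlapped between the groups and did not pass. Of the active zone scaffolds 0 of 9 were called, with 4 fold changes negative, 5 positive and a median log2 fold change of 0.37. Rimbp2 had no count in hypoxia, against 10.9 and 26.9 CPM in normoxia, and Pclo, the giant scaffold Piccolo, had 0 and 0.185 CPM, against 46.1 and 31.1 CPM. Ppfia3 had 0 and 0.0740 CPM, against 37.8 and 2.28 CPM, while Cask had 2541 and 5538 CPM in hypoxia, against 3493 and 1671 CPM in normoxia.

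The 18 widely expressed relatives of the SNARE genes gave 0 calls in either direction, with 7 fold changes negative and 11 positive and a median log2 fold change of 0.25. Their 4 smallest p-values belonged to Stx6, Syt11, Stx5a and Stx18, none of which passed. Syt11 had 515 and 632 CPM in hypoxia, against 477 and 463 CPM in normoxia, and Stx6 had 55.3 and 110 CPM, against 168 and 107 CPM. Stx5a had 51.2 and 17.6 CPM, against 90.0 and 42.0 CPM, and Stx18 had 43.1 and 64.6 CPM, against 4.57 and 40.0 CPM. Of the relatives, 10 had at least 10 CPM in both normoxic libraries. Of these, 0 lay under 1 CPM in both hypoxic libraries and 1, Stx16, in 1 of them. Among all genes so expressed the shares were 6.53% and 17.9%. At E15, 15 relatives had at least 10 CPM in both libraries. Of these, 0 lay under 1 CPM in both hypoxic libraries and 3, Snap29, Stx16 and Vamp3, in 1. Among all genes so expressed at E15 the shares were 10.7% and 22.6%. In normoxia 0 of the same 15 lay under 1 CPM in both libraries and 4, Snap23, Snap29, Sypl and Vamp3, in 1. The shares of all genes there were 2.43% and 13.1%. Of 11 relatives with at least 10 CPM in both hypoxic libraries, Stx2 and Sypl lay under 1 CPM in 1 normoxic library (18.2%, against 4.94% of all genes). Stx16, Snap29, Vamp3, Snap23, Sypl and Stx2 are named after their values were seen. The difference between this list and the 9 genes was not tested.

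**Figure D3:**
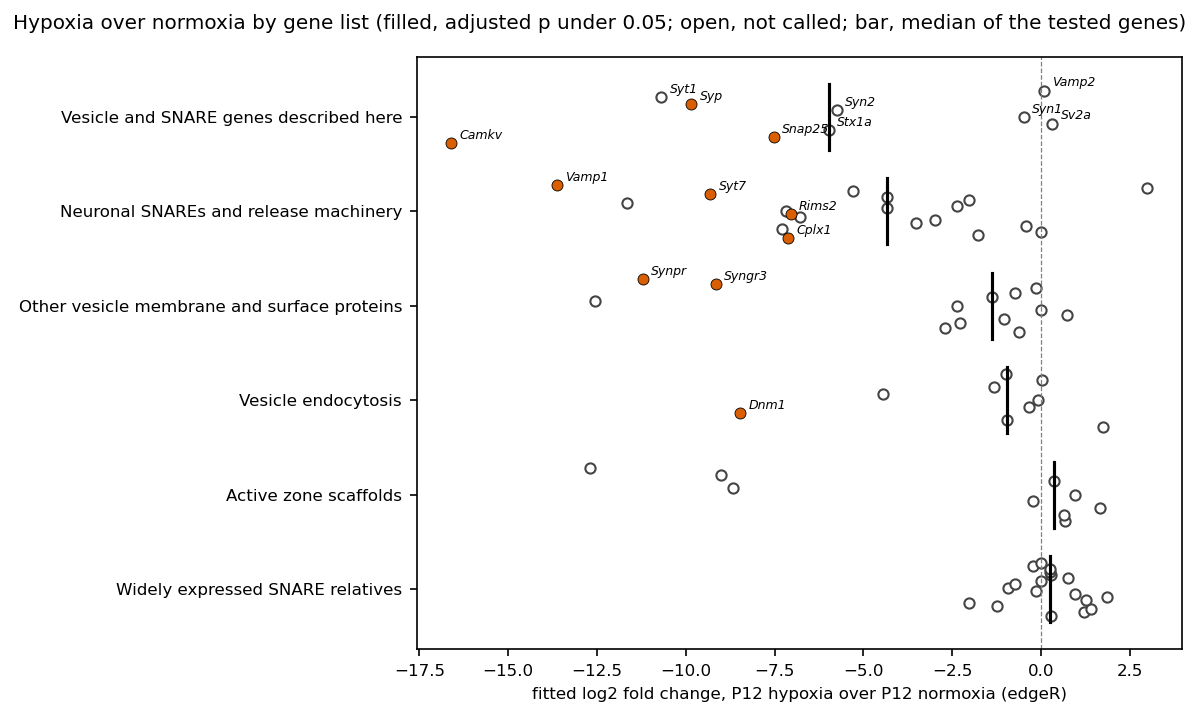
Fitted log2 fold change of P12 hypoxia over P12 normoxia for each tested gene of the 9 and of 5 further lists, 1 point a gene, filled where the edgeR adjusted p was under 0.05, with a bar at the list's median. Called genes all lie left of 0, and points beyond about -8 belong to genes with few or no counts in hypoxia. Where a gene had no count in hypoxia, its fitted value depends on the prior count.

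Marker genes were read beside these values. Neuron markers summed to 524 and 936 CPM in hypoxia, against 940 and 941 CPM in normoxia, with Nefl and Nefm at 0 counts in both hypoxic libraries and none of the 10 at 0 in normoxia. Of the 10 neuron markers 1, Stmn2, was called lower in hypoxia and 0 higher, with 6 fold changes negative and 4 positive. Among all tested genes 2.82% were called lower and 0.196% higher. Of the 10, 5 lay lower in both hypoxic libraries than in both normoxic ones and 2 higher, beside 20.1% and 13.1% of all tested genes. Map2 averaged 244 CPM in hypoxia and 115 CPM in normoxia and Tubb3 109 CPM in hypoxia and 72.3 CPM in normoxia, neither called. Gap43 averaged 46.3 CPM in hypoxia and 389 CPM in normoxia and Rbfox3 3.62 CPM in hypoxia and 58.4 CPM in normoxia, neither called. The 8 progenitor markers summed to 1674 and 1630 CPM in hypoxia, against 1223 and 1474 CPM in normoxia, and none was at 0 in any library. Astrocyte markers summed to 13697 and 11522 CPM in hypoxia, against 11254 and 11150 CPM in normoxia. Oligodendrocyte progenitor markers summed to 873 and 1492 CPM, against 456 and 315 CPM, and oligodendrocyte markers to 1157 and 1969 CPM, against 201 and 589 CPM, with Mog, Mobp or both at 0 in each P12 library. Microglia markers summed to at most 21.2 CPM in any P12 library, and C1qa and C1qb were at 0 in all 4. The endothelial markers Cldn5, Pecam1 and Cdh5 were at 0 in all 4 P12 libraries, while the mural marker Rgs5 alone had 1241 and 1021 CPM in hypoxia, against 2501 and 1906 CPM in normoxia. Red blood cell markers summed to 4.31 and 0.0370 CPM in hypoxia and were all at 0 in normoxia. The part of these markers in the values of the 9 genes was not tested.

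**Figure D4:**
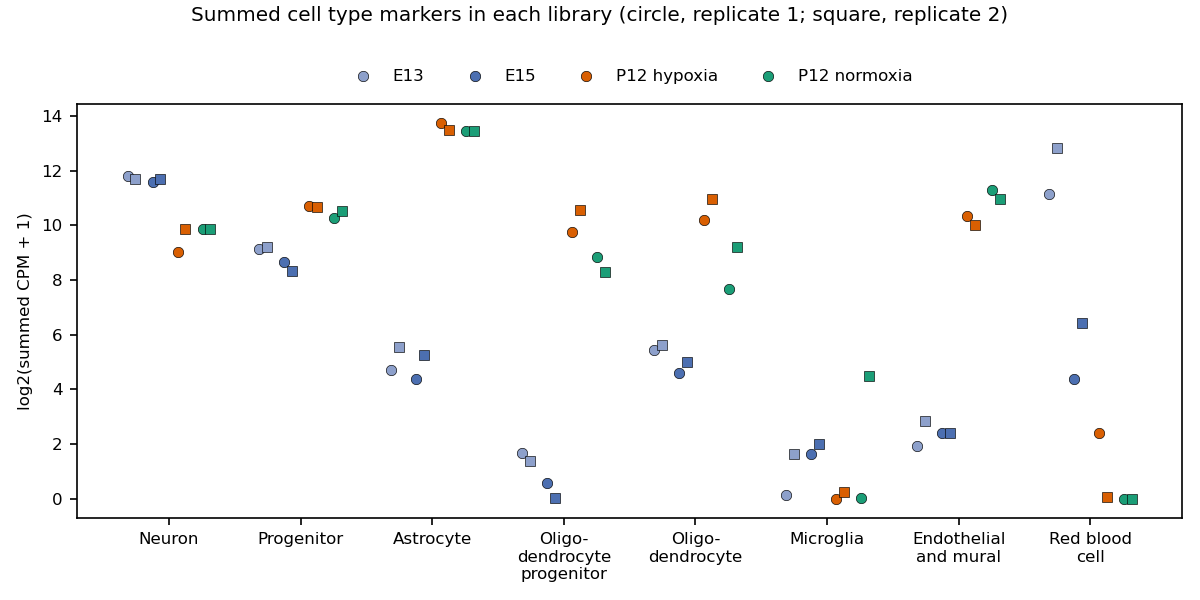
Summed CPM of 8 lists of cell type markers, as log2(summed CPM + 1), in each library, with circles for replicate 1 and squares for replicate 2. Neuron sums lie at 524 to 941 CPM at P12 and at 3026 to 3546 CPM in the embryo, and astrocyte sums at 11150 to 13697 CPM at P12 and at 19.8 to 45.6 CPM in the embryo.

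Against E15, 4 of the 9 genes fell in hypoxic cells by the same test. Snap25 fell by 6.99 on the log2 scale (SE 0.66, edgeR adjusted p = 0.00295), and Syn2 fell by 7.31 (SE 1.24, edgeR adjusted p = 0.0150). Syp was lower by a ratio of 3624 (95% counting interval 650 to 143152; edgeR adjusted p = 0.00473), and Camkv passed with an edgeR adjusted p of 0.00812. Of the 9, 4 were called lower and 0 higher, beside 10.2% and 9.14% of all tested genes (19.3% in either direction). In both hypoxic libraries 7 of 9 lay lower, as did 40.7% of all tested genes, and 0 higher, against 23.8%. Of 7 genes with at least 10 CPM in both E15 libraries, Snap25, Stx1a and Syp lay under 1 CPM in both hypoxic libraries and Sv2a, Syn1 and Syn2 in 1, against 10.7% and 22.6% of 8893 genes. Stx1a had 5 counts over both hypoxic libraries and 2859 over both E15 libraries, and was not called at a log2 fold change of -8.01 (SE 2.30, edgeR adjusted p = 0.0591). Nor was Vamp2, at -1.34 (SE 0.57, edgeR adjusted p = 0.154). Of the 10 neuron markers 3 were called lower and 0 higher, and 8 lay lower in both hypoxic libraries than in both E15 ones and 1 higher. All 7 astrocyte markers were called higher. The part of these markers in the values of the 9 genes was not tested. Without E15 replicate 1 the calls were 2, Snap25 and Syp, without hypoxic replicate 2 they were 6, and limma-voom called Syp alone.

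In normoxic P12 cells 1 of the 9 genes differed from E15. Camkv rose by 6.73 on the log2 scale against E15 (SE 0.78, edgeR adjusted p = 0.0115), and 1 of 9 was called higher and 0 lower, beside 7.19% and 3.22% of all tested genes (10.4% in either direction). That call was lost without normoxic replicate 1, E15 replicate 1 or E15 replicate 2, while its log2 fold change lay between 6.35 and 7.22 over the fits without 1 library. The other 8 did not pass, and a fit of only the libraries compared also called Camkv alone of the 9. Each SE comes from the fit of all 8 libraries, so it also carries the spread of the hypoxic libraries. For Sv2a these had 0.336 and 201 CPM, and for Syn1 0.235 and 59.7 CPM. Fold changes were positive for Syt1 (4.65, SE 1.94), Sv2a (1.44, SE 1.94), Snap25 (0.53, SE 0.51) and Syn1 (0.25, SE 1.76). They were negative for Stx1a (-2.03, SE 1.73), Syp (-1.74, SE 0.83), Syn2 (-1.56, SE 0.96) and Vamp2 (-1.41, SE 0.58). All 9 lay wholly above or wholly below both E15 libraries, as 36.8% of all tested genes lay below and 30.6% above. Among the further genes, Slc17a7, the vesicular glutamate transporter 1, had no count in any P12 library and 59.3 and 59.9 CPM at E15, and Cplx2, complexin 2, had 680 and 2261 CPM in normoxia, against 24.1 and 26.7 CPM at E15. Both were called (edgeR adjusted p-values 0.00535 and 0.00565). By list, 0 of 19 release genes were lower and 1 higher (Cplx2), 2 of 13 other vesicle genes lower (Slc17a7 and Syn3) and 2 higher (Syngr1 and Syngr3), and 0 of 9 endocytosis genes lower and 1 higher (Dnm1). Of the active zone scaffolds 0 of 9 were lower and 2 higher (Rimbp2 and Cask), and of the widely expressed relatives 0 of 18 were lower and 1 higher (Vamp4). Of these, Slc17a7, Cplx2, Syn3, Syngr1 and Vamp4 are named after their values were seen. This comparison shares its E15 libraries with the one above and its normoxic libraries with the comparison at P12, so the values do not stand independently. Neuron markers summed to 940 and 941 CPM in normoxia, against 3026 and 3297 CPM at E15. Of the 10 neuron markers 2, Tubb3 and Map2, were called lower and 0 higher. Of these markers 6 had negative fold changes and 4 positive, and of the 9 genes 4 negative and 5 positive. All 7 astrocyte markers were called higher. The part of these markers was not tested.

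Between E15 and E13 none of the 9 genes was called in any setting run. Fitted to all 8 libraries, edgeR called 0 of the 9 and 0% of all tested genes. At an unadjusted p under 0.05 it had 690 genes (3.46%), none of them among the 9, while DESeq2 called 364 and limma-voom 935, again with 0 of the 9. Fitted to the E13 and E15 libraries alone, edgeR called 229 genes and 0 of the 9, with 3688 genes at an unadjusted p under 0.05. Log2 fold changes in the fit of all 8 libraries ran from -1.57 for Syt1 (SE 1.70) to 0.57 for Syn1 (SE 1.76). These SEs also carry the spread of the P12 libraries. Snap25, Vamp2, Stx1a, Syn1 and Syn2 lay higher in both E15 libraries and Syp and Syt1 lower, beside 23.6% and 25.8% of all tested genes, and Sv2a and Camkv overlapped. Red blood cell markers differed most between these stages, with 20.1 and 85.5 CPM at E15 and 2237 and 7292 CPM at E13. Their part in these values was not tested.

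Levels of different genes were compared per length, as CPM per kilobase of merged exons. In P12 hypoxia Sv2a stood at 21.7 ± 30.5, Vamp2 at 14.8 ± 6.74 and Syn1 at 9.09 ± 12.8 CPM per kilobase (SD, n = 2), and the other 6 at or below 0.105. In P12 normoxia Camkv led with 75.3 ± 20.2 CPM per kilobase. Sv2a, Vamp2, Snap25, Syn1 and Syt1 followed at 17.5 ± 6.09, 14.1 ± 8.58, 12.8 ± 0.184, 12.7 ± 1.01 and 11.3 ± 6.07, neighbours that did not differ beyond their spread. Syn2 (5.67 ± 6.10), Syp (3.66 ± 2.24) and Stx1a (2.19 ± 3.03) came last and overlapped in spread. At E15 Vamp2 led with 37.4 ± 3.69 CPM per kilobase, followed by Syn2 (16.7 ± 1.68), Syp (12.2 ± 0.776) and Syn1 (10.7 ± 0.0922). Stx1a (8.97 ± 1.39) and Snap25 (8.87 ± 1.01) did not differ beyond their spread, Sv2a stood at 6.42 ± 0.385, and Camkv and Syt1 at 0.709 ± 0.295 and 0.450 ± 0.604. At E13 Vamp2 again led with 29.8 ± 4.28 CPM per kilobase, and Camkv and Syt1 were again last at 1.47 ± 0.801 and 1.34 ± 0.541. Vamp2 was thus the most abundant transcript of the 9 in the embryo, and Camkv in normoxia. At E15 Camkv and Syt1 were the lowest and did not differ beyond their spread.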

How the data were processed

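Raw counts per gene, 1 file per library, were deposited by the authors. Per the submitters' processing notes, the build was GRCm38 and the tools included STAR, Subread and cutadapt, with no version listed. Strand setting and the handling of multiply mapped reads are not given in the sources used here, so reads shared with pseudogenes or overlapping genes are not resolved. Of 55487 rows 1980 named no gene (0.205% to 0.266% of counts) and were left out, and 14 date-like rows were kept unnamed. Positions and exon lengths are from GENCODE M21 on GRCm38.

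Counts were fitted with edgeR 4.0.16 in R 4.3.3: TMM, filterByExpr (minimum count 10, minimum total 15), glmQLFit on the 4 groups over all 8 libraries (4 residual degrees of freedom), glmQLFTest, two-sided, Benjamini-Hochberg over 19936 genes, threshold 0.05. The SE comes from the F statistic. DESeq2 1.42.0, limma 3.58.1 (voom with sample quality weights), other scalings, filters and library sets were alternatives. The pipeline was run on simulated counts in which each gene had the same spread in every group. The spread here differed between P12 and the embryo, so that run does not bear on calls under unequal spread. Figures used Python 3.11.15 and matplotlib 3.10.9.

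Named from each further list were the up to 4 genes of smallest p in hypoxia against normoxia, and any called in that comparison. The 9 genes and all lists were chosen with earlier results of these data known. Replicate numbers follow the titles; the files' own P12 numbers differ.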

Additional observations from a re-analysis of the deposited data

How the results depend on the processing

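Calls in hypoxia against normoxia moved with the method, the filter and the libraries fitted. The 602 genes called, 3 of the 9 among them, became 3966 and 6 with DESeq2, 0 and 0 with limma-voom, 0 and 0 (of 8 tested) with only the P12 libraries, and 295 genes without a low-count filter. At an unadjusted p under 0.05 the fits with 0 calls had 1699 genes (limma-voom) and 1558 (P12 libraries only). Fits without 1 library gave 0 to 3018 genes and 0 to 5 of the 9, with 0 in each fit without an embryonic library, where the cause was not tested. Normoxia against E15, with 2075 genes called, had 6229 (DESeq2), 3503 (limma-voom), 1283 (no filter), 3437 (only these libraries) and 210 to 4429 (without 1 library). Of the 9, DESeq2 called 2 lower and 2 higher there, and fits without 1 library 0 to 1 in each direction. Hypoxia against E15, with 3857 genes called, had 7949 (DESeq2), 2328 (limma-voom), 2509 (no filter) and 436 to 5908, with 1 of the 9 lower in limma-voom, 2 to 6 lower and 0 to 1 higher without 1 library. For E15 against E13, edgeR called 0 genes with all libraries and 229 with only these libraries. DESeq2 called 364 and limma-voom 935, with 0 of the 9 in every setting run.

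Equal replicate numbers showed no pairing: deviations from group means correlated at -0.0444 to 0.0137 over 6 pairs of groups. With a replicate block the calls were 1 gene and 0 of the 9 in hypoxia against normoxia, 826 genes for normoxia against E15 and 1849 for hypoxia against E15.

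Signs turned only for Vamp2, Syn1 and Sv2a, none of them called by edgeR with all libraries. DESeq2 with all libraries called Vamp2 lower in normoxia against E15, where its sign did not turn. Without hypoxic replicate 2, leaving 1 hypoxic library, Sv2a was called lower against normoxia (edgeR adjusted p = 0.0136) and against E15 (edgeR adjusted p = 0.00761), and without hypoxic replicate 1 it was called higher against E15 (edgeR adjusted p = 0.0101). In hypoxia against normoxia, Vamp2 was -0.060 with upper-quartile scaling, and -0.37 to 0.89 without 1 library; Syn1 was -7.45 to 0.62 and Sv2a -7.91 to 1.41 without 1 library, and Sv2a was -3.54 in limma-voom and -0.19 with the replicate block. In hypoxia against E15, Syn1 was 0.065 with relative log expression scaling and 0.065 in DESeq2, and -7.23 to 0.76 without 1 library, while Sv2a was -2.13 in limma-voom and -6.47 to 2.76 without 1 library. Upper-quartile scaling set the median of all genes at -0.10, -0.18 and -0.64 in hypoxia against normoxia, normoxia against E15 and hypoxia against E15. Precision is limited by 2 libraries a group and counts near 0 at P12.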
